A study of Mus musculus with 451 samples.

Results

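The genes described here are 8 transcription regulators of the skeleton, namely Runx1, Runx2 and their binding partner Cbfb, and the Sox family members Sox9, Sox5, Sox6, Sox4 and Sox11. They were taken by symbol from a table of raw read counts that holds 48795 genes, of which 25841 had a read in at least 1 cell. All 8 were found in the table and all 8 had reads in both genotypes.

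Runx proteins bind DNA through a Runt domain, and Cbfb, which does not itself contact DNA, tightens that binding. Runx2 is required for osteoblasts to form, and Runx1 is best known from blood stem cells and is also active in skeletal progenitors. Sox9 is the master regulator of cartilage and works there with Sox5 and Sox6, which lack an activation domain of their own. Sox4 and Sox11 act in many progenitor cells, skeletal ones included.

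The cells came from tail tendons of C57BL/6 mice aged 4 weeks, either wild type (WT) or Mkx-/-, a genotype that disrupts the tendon transcription factor Mohawk. Single cells were captured on Fluidigm C1 chips, and 227 WT and 224 Mkx-/- cells were deposited, 1 sample per cell. The Mkx-/- mice are a model of bone formation inside tendon, and no agent was given to the animals whose tail tendons were used here. The labels do not tie cells to animals or chips, so each genotype counts as 1 sample, no test between genotypes was possible, and a genotype difference cannot be told apart from a difference between animals or captures.

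Levels are given in CPM, the reads of a gene scaled to a total of 1000000 gene-assigned reads, after the reads of all cells of a group were summed. The 95% intervals, which are exact for sums, ratios and shares and Newcombe's for differences between shares, cover counting error only, since reads amplified from 1 cell are not independent molecules. The WT total was 13630536 reads (median cell 51788, range 13076 to 335813) and the Mkx-/- total 14145394 (median cell 56121, range 14226 to 294791). Mkx itself was at 33.8 CPM in WT against 15.5 CPM in Mkx-/- cells, so reads of the targeted gene were not lost. The cells were clustered after alignment of the genotypes. The clusters were a progenitor-like group named TPC-like (89 WT and 88 Mkx-/- cells), a tenocyte-like group named TC-like (74 and 80 cells) and cluster 3 (64 and 56 cells). The 6 tenocyte markers, among them Tnmd and Col1a1, summed to 317850 CPM in WT TC-like cells and 27329 CPM in WT TPC-like cells. The 5 progenitor markers, among them Cd44 and Ly6a, summed to 24318 CPM in WT TPC-like and 4505 CPM in WT TC-like cells. Cluster 3 was led by Mmp3 and Serpine2 and was left unnamed. Reads of at least 3 markers of an endothelial, mural, immune, Schwann or muscle cell were found in 17 WT and 12 Mkx-/- wells, and values without those wells are given where they differ.

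The 5 Sox genes share a DNA-binding HMG box, and a stretch near its start is printed because it shows how far reads of these relatives can be told apart. The lines give the matching 60 coding bases of each gene from GENCODE transcripts of the NCBIM37 annotation, and the place of each gene is given with its values. Capitals mark bases that differ from Sox9.
Sox9: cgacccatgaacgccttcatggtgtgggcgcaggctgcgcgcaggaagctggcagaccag
Sox5: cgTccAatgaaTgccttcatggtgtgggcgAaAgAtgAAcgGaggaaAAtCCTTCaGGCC
Sox6: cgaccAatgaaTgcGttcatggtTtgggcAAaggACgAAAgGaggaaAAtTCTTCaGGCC
Sox4: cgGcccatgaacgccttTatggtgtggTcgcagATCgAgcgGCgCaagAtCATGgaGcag
Sox11: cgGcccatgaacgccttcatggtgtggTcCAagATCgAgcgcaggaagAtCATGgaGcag

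Over the coding bases of the whole box, Sox4 and Sox11 were 89% identical, Sox5 and Sox6 82.3%, and Sox9 and Sox4 72.2%. The longest exact run shared by 2 of the genes was 48 bases, in the coding part of Sox4 and Sox11. No gene had a second match of more than 300 bases elsewhere in the NCBIM37 genome. The counting of the deposited reads is not stated to use strand. Reads from an antisense gene may therefore be counted with those of the gene itself. This bears most on Sox4, a single exon of 4795 bases of which 2616 are overlapped on the other strand by the lincRNA Gm17419, and on Sox5, which shares 1330 exonic bases with 4933415D12Rik.

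Runx1 and Runx2 share a feature near a start site, printed because it is common to both Runx genes of the set. In RefSeq promoters of GRCm38.p6, both held a tandem pair of the Runx letters (ACCACA, the reverse complement of TGTGGT, in capitals) just inside the transcript. The Runx1 window is chr16:92826026-92826053 on the minus strand and begins at base 22 after the start site, and the Runx2 window is chr17:44814584-44814611 on the minus strand and begins at base 17.
Runx1: ataaacaACCACAgaACCACAagttggg
Runx2: acaaacaACCACAgaACCACAagtgcgg
The windows agree at 25 of 28 bases. The pair with this spacing (ACCACAGAACCACA, searched on both strands) occurred in 4 of 32851 promoters of 300 bases, while the single letters TGTGGT on either strand occurred in 16.8%. A match of letters is a description and not a bound site.

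Of the 8 genes, 7 had at least 100 reads over both genotypes and were compared. Runx2, with 18 WT and 6 Mkx-/- reads, was not. The same minimum of 100 reads over the groups compared holds for every count of members past 1.5-fold, and a ratio that rests on fewer reads is given with its reads as a description only. Over all cells, 2 of the 7 (Sox5 and Sox4) were higher in Mkx-/- cells and 5 were lower. Past 1.5-fold, 1 was higher, Sox5, where 16% of the 10963 genes with at least 100 reads were, and 1 was lower, Sox6, where 13.1% were. On the log2 scale the Mkx-/- over WT ratio had a median of -0.17 for the 7 genes and 0.05 for all 10963. Both counts were near the background, and the genes differed from each other in direction and by cluster.

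**Figure D1:**
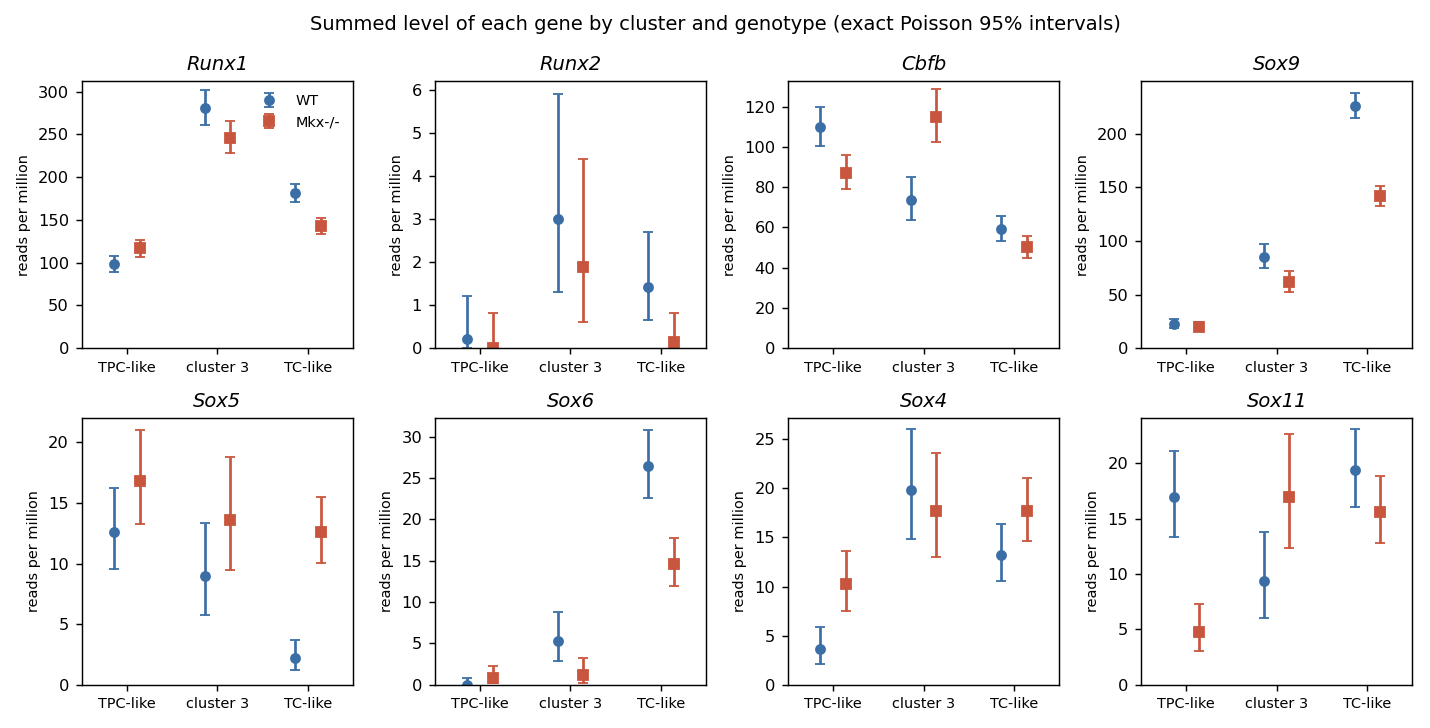
Summed level of each gene in CPM (vertical axis, linear from 0, own scale per gene) in the 3 clusters, for WT (circles) and Mkx-/- cells (squares), with exact 95% Poisson intervals that cover counting error only. Sox9 and Sox6 were highest in TC-like cells of both genotypes, and Sox5 in TC-like cells was at 2.20 CPM in WT against 12.6 CPM in Mkx-/- cells.

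Runx1 (NCBIM37 chromosome 16, 92601712 to 92826311, minus strand, 9 exon blocks) had the most reads of the 8 genes, with 2357 from WT cells and 2174 from Mkx-/- cells. Its level was 172.9 CPM in WT against 153.7 CPM in Mkx-/- cells, for a log2 difference of -0.17 (interval -0.25 to -0.09), and with every cell weighted equally the ratio was -0.06. At least 1 read was present in 62.1% of WT cells but in 73.7% of Mkx-/- cells, 11.5 percentage points more (interval 2.93 to 19.9). A gain of 10 points or more was seen for 6.03% of all genes compared, and a lower level together with a higher share of cells for 17.9%. With every cell thinned to 28000 reads, the shares were 59.6% and 66.3%. The median in cells with a read was 180.3 CPM in WT against 131.5 CPM in Mkx-/- cells. Runx1 was thus read in more Mkx-/- cells, at a lower level per positive cell, in these libraries.

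By cluster, the WT order of Runx1 levels was cluster 3 (281.04 CPM), TC-like (181.7 CPM) and TPC-like (98.3 CPM), and the Mkx-/- order was the same at 246.3, 142.6 and 116.7 CPM. The intervals of neighbours in this order did not overlap in either genotype. The log2 ratio of Mkx-/- to WT was 0.25 in TPC-like cells (interval 0.06 to 0.43), -0.19 in cluster 3 (-0.34 to -0.04) and -0.35 in TC-like cells (-0.47 to -0.23). A ratio above 0 in TPC-like and below 0 in TC-like cells was found for 16.6% of 7241 genes. The TPC-like value depended on the clustering, and was -0.07 when cells were grouped by k-means without alignment. Of the TPC-like cells 51.7% had a read in WT but 67% in Mkx-/-, and of the TC-like cells 74.3% and 83.8%.

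Runx2 (chromosome 17, 44632936 to 44951746, minus strand), the osteoblast regulator, was read in 4 of 227 WT cells (1.76%) and in 2 of 224 Mkx-/- cells (0.893%). The WT reads were 1 in a single TPC-like cell, 8 in a single cell of cluster 3 and 9 in 2 TC-like cells. The Mkx-/- reads were 5 in a single cell of cluster 3 and 1 in a TC-like cell. No read was found in the 88 Mkx-/- TPC-like cells, which allows a share of up to 3.41% by the rule of 3 counts (exact upper limit 4.11%). Of the 18 WT reads, 55.6% lay in wells with markers of other cell types. At this depth no difference of Runx2 between the genotypes could be read.

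Cbfb (chromosome 8, 107694574 to 107741886, plus strand), the partner that stabilizes Runx proteins on DNA, was at 79.2 CPM in WT against 74.2 CPM in Mkx-/- cells, for a log2 difference of -0.09 (interval -0.22 to 0.03). Reads were present in 44.1% of WT cells and 44.6% of Mkx-/- cells. In WT it was highest in TPC-like cells, at 109.8 CPM, against 73.8 CPM in cluster 3 and 59.2 CPM in TC-like cells. In Mkx-/- cells the order was cluster 3 at 114.9 CPM, TPC-like at 87.2 CPM and TC-like at 50.04 CPM. Cbfb was the only member past 1.5-fold between the genotypes in cluster 3, of 4 compared, with a log2 ratio of 0.64 (interval 0.37 to 0.90), where 20.6% of 6427 genes were past 1.5-fold in that direction and 19.5% in the other. In TPC-like cells the ratio was -0.33 and in TC-like cells -0.24. Without wells that held other cell markers, the TC-like ratio was -0.01.

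Runx1 and Cbfb were read together in 67 WT and 75 Mkx-/- cells. Cbfb was found in 47.5% of WT cells with a Runx1 read and in 38.4% of those without, and in 45.5% and 42.4% of the respective Mkx-/- cells. Cells with a Runx1 read were also deeper, with medians of 56115 against 40861 reads in WT and 59493 against 42796 in Mkx-/-. The part of depth in these shares was not tested beyond thinning, which left 41 WT cells with both genes.

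**Figure D2:**
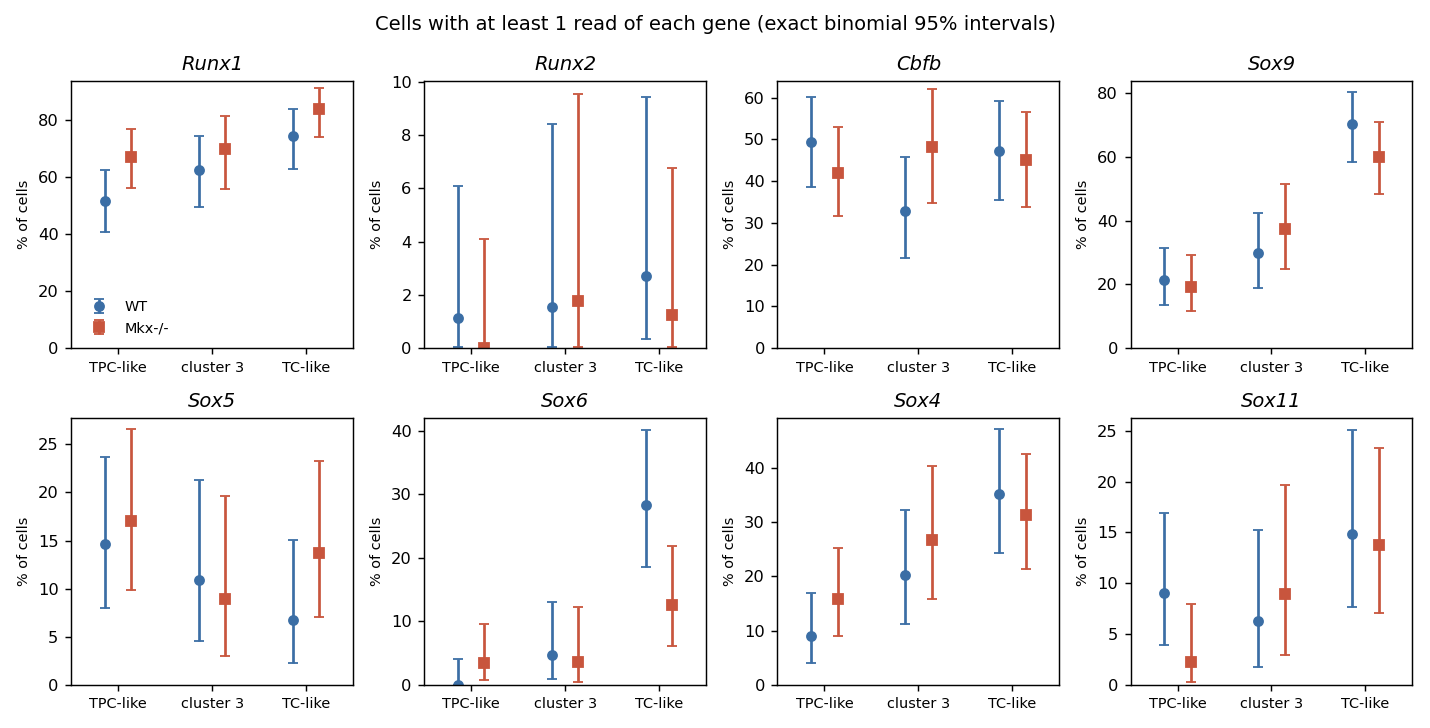
Percentage of cells with at least 1 read of each gene (vertical axis, linear from 0, own scale per gene) by cluster, for WT (circles) and Mkx-/- cells (squares), with exact 95% binomial intervals. Sox6 was read in 28.4% of WT and 12.5% of Mkx-/- TC-like cells. Runx1 was read in a larger share of Mkx-/- than WT cells of each cluster. With cells thinned to equal depth, its share in cluster 3 was 68.3% in WT against 65.4% in Mkx-/- cells.

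Sox9 (chromosome 11, 112643538 to 112649074, plus strand, 3 exon blocks), the cartilage regulator, was lower in Mkx-/- cells. Its 1769 WT and 1237 Mkx-/- reads gave 129.8 and 87.4 CPM and a log2 ratio of -0.57 (interval -0.68 to -0.46), and -0.55 with equal weight per cell. Reads were present in 39.6% of WT cells and 38.4% of Mkx-/- cells, so the gap lay in the level of positive cells, whose median was 160.5 CPM in WT against 88.9 CPM in Mkx-/-. Wells with markers of other cell types held 15.5% of the WT and 3.23% of the Mkx-/- Sox9 reads, and without them the ratio over all cells was -0.39. The Schwann marker list, of which 6 of 7 genes had reads in each genotype, summed to 154.8 CPM in WT against 231.6 CPM in Mkx-/- cells, and Sox10, the defining Schwann cell factor, had 29 and 51 reads of which 89.7% and 86.3% came from a single cell. The part of these cells in the Sox9 ratio was not tested beyond that omission. Of 7 chondrocyte markers, 4 had reads in TC-like cells of each genotype, and they summed to 355.8 CPM in WT against 273.04 CPM in Mkx-/-, of which Col2a1 made up 331.2 and 226.9 CPM.

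Sox9 followed the tenocyte-like state in both genotypes. In WT it was at 22.8 CPM in TPC-like cells, 85.1 CPM in cluster 3 and 226.2 CPM in TC-like cells, and in Mkx-/- cells at 20.1, 61.8 and 141.9 CPM. TC-like cells were thus 9.93-fold above TPC-like cells in WT and 7.06-fold in Mkx-/-. Of the 6 members with at least 100 reads in each genotype over these clusters, Sox9, Sox6 and Sox4 were at least 1.5-fold higher in TC-like cells of both genotypes, where 5.66% of 7549 genes were, and Cbfb was lower by that much, where 31.1% were. The clusters were drawn on these same cells, so this is a description. Between genotypes the TC-like log2 ratio of Sox9 was -0.67 (interval -0.79 to -0.56), and -0.50 without wells holding other cell markers. In TPC-like cells it was -0.18 with an interval of -0.60 to 0.24, and its sign changed with the clustering.

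**Figure D3:**
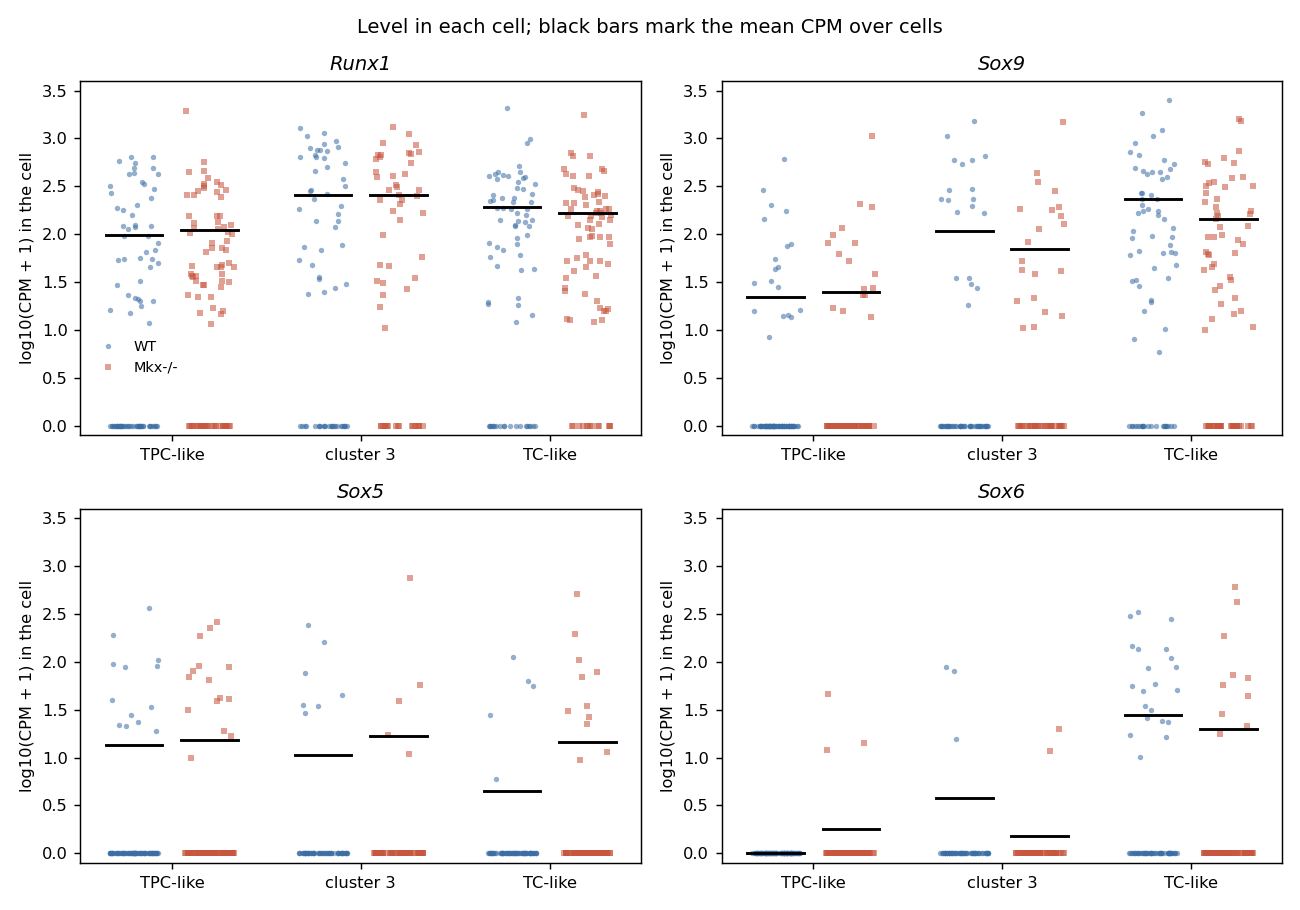
Level of Runx1, Sox9, Sox5 and Sox6 in every cell as log10(CPM + 1) (vertical axis) by cluster, for WT (circles) and Mkx-/- cells (squares), where points at 0 are cells without a read and black bars mark the mean CPM over cells. The highest Sox9 cell reached 2502 CPM in WT against 1594 CPM in Mkx-/-, both in TC-like cells, while no WT TPC-like cell had a Sox6 read.

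Sox5 and Sox6, which act as a pair beside Sox9 in cartilage, differed between the genotypes in opposite directions. Sox5 (chromosome 6, 143776945 to 144730497, minus strand) had 96 WT reads and 200 Mkx-/- reads, which gave 7.04 and 14.1 CPM and a log2 ratio of 1.01 (interval 0.65 to 1.37), and 0.71 with equal weight per cell. It was read in 25 WT cells (11%) and 31 Mkx-/- cells (13.8%), 2.83 points more with an interval of -3.32 to 9.01. Sox6 (chromosome 7, 122614858 to 123182258, minus strand) was at 13.4 CPM in WT against 7.63 CPM in Mkx-/- cells, for a log2 difference of -0.81 (interval -1.16 to -0.46), and -0.41 with equal weight per cell. It was read in 24 WT cells (10.6%) and 15 Mkx-/- cells (6.70%).

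In TC-like cells both genes were past 1.5-fold. There Sox5 had 14 WT reads in 5 cells and 87 Mkx-/- reads in 11 cells, or 2.20 and 12.6 CPM, a log2 ratio of 2.51 (interval 1.69 to 3.44). A single Mkx-/- cell held 44.8% of those reads, and leaving out both genotypes' leading cells gave 2.14. Clustering with 10 dimensions gave 1.67. Sox6 in the same cells was at 26.4 CPM in WT, with reads in 21 of 74 cells (28.4%), and at 14.6 CPM in Mkx-/-, with reads in 10 of 80 cells (12.5%). The log2 ratio was -0.86 (interval -1.23 to -0.49), -0.51 with equal weight per cell, and the share was 15.9 points lower (interval 28.3 to 3.15 points lower). Thinned to 28000 reads per cell, the shares were 22.2% and 9.90%. Of the 7 members compared in TC-like cells, Sox5 was higher past 1.5-fold, where 28% of 8198 genes were. Sox9 and Sox6 were lower past 1.5-fold, where 13.2% were. Sox5 only just reached the minimum of reads in these cells, and mainly through its 87 Mkx-/- reads. Its place in this count therefore leans on the group where it was high. Here the median log2 ratio of all genes was 0.20.

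In the other clusters Sox5 was at 12.6 CPM in WT against 16.8 CPM in Mkx-/- TPC-like cells (log2 ratio 0.42, interval -0.09 to 0.94, and -0.07 without wells holding other cell markers). In cluster 3 it was at 8.99 and 13.6 CPM on 24 and 36 reads, under the minimum, and a single Mkx-/- cell held 83.3% of the reads, and without the leading cells the log2 ratio turned from 0.59 to -1.49. Sox6 had no read in the 89 WT TPC-like cells, which allows a share of up to 3.37% by the rule of 3 counts (exact upper limit 4.06%), and 4 reads in 3 of the 88 Mkx-/- ones. In cluster 3 it had only 14 WT and 3 Mkx-/- reads, too few to compare. Against 3 reads as the floor over the group, its WT level was 40.6-fold higher in TC-like than in TPC-like cells. On the log2 scale this was 5.34, with an interval that starts at 5.03 and has no upper limit. In Mkx-/- cells the Sox6 level was 16.7-fold higher in TC-like cells. Sox5 went the other way in WT, where TC-like cells lay below TPC-like cells with a log2 ratio of -2.51 (interval -3.47 to -1.65, on 14 and 58 reads, under the minimum), while in Mkx-/- cells that ratio was -0.42 (-0.88 to 0.04).

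Sox5 and Sox6 were each read in few cells, and few cells had both. Of the 25 WT cells with Sox5 and the 24 with Sox6, 3 had both, and of the 31 and 15 Mkx-/- cells none had both. Sox6 was read mostly beside Sox9. In WT, 21.1% of cells with a Sox9 read and 3.65% of those without had Sox6, and in Mkx-/- cells 11.6% and 3.62%. Within TC-like cells these shares were 32.7% and 18.2% in WT, and 18.8% and 3.13% in Mkx-/-. Cells with Sox9 were deeper, with a median of 70567 against 44259 reads in WT and 68845 against 49034 in Mkx-/-, and after thinning 9 of the 19 WT cells with both genes were left. Sox5 showed no such tie, being read in 7.78% of WT cells with Sox9 and 13.1% of those without, and in 13.95% and 13.8% of the respective Mkx-/- cells.

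Sox4 (chromosome 13, 29040788 to 29045582, minus strand) and Sox11 (chromosome 12, 28025562 to 28027574, minus strand), each a single exon, are the closest relatives of the set. Sox4 was at 11.3 CPM in WT against 15.3 CPM in Mkx-/- cells, for a log2 difference of 0.43 (interval 0.13 to 0.74), and was read in 20.7% and 24.1% of cells. In WT it was at 3.69 CPM in TPC-like cells, 13.2 CPM in TC-like cells and 19.9 CPM in cluster 3, and the intervals of the latter pair overlapped. Mkx-/- cells had 10.3, 17.6 and 17.7 CPM in that order. In TPC-like cells, 17 WT reads in 8 cells and 47 Mkx-/- reads in 14 cells, under the minimum of 100, gave a log2 ratio of 1.48 (interval 0.65 to 2.37) that was 0.30 under k-means grouping. In TC-like cells the ratio was 0.42 and in cluster 3 -0.17, with intervals of 0.00 to 0.83 and -0.76 to 0.43.

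Sox11 was at 16.6 CPM in WT against 12.4 CPM in Mkx-/- cells, for a log2 difference of -0.42 (interval -0.72 to -0.13), and was read in 23 WT and 18 Mkx-/- cells. Its values rested on few cells. In TPC-like cells, 78 WT reads came from 8 cells, of which 1 held 53.8%, and 22 Mkx-/- reads came from 2 cells, of which 1 held 90.9%. The log2 ratio there was -1.82, and -4.16 when both leading cells were left out. It was the only one of the 5 members compared in TPC-like cells past 1.5-fold, where 16.2% of 8199 genes were lower by that much and 17.7% higher. Sox11 only just reached the minimum there, and mainly through its 78 WT reads, so its place in this count leans on the group where it was high. In cluster 3, 1 cell held 64% of the WT and 68.9% of the Mkx-/- reads, and the ratio was 0.86 on 25 and 45 reads, under the minimum. In TC-like cells it was -0.31 with an interval of -0.70 to 0.07, and 0.21 without wells holding other cell markers, which held 29.2% of all WT Sox11 reads.

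**Figure D4:**
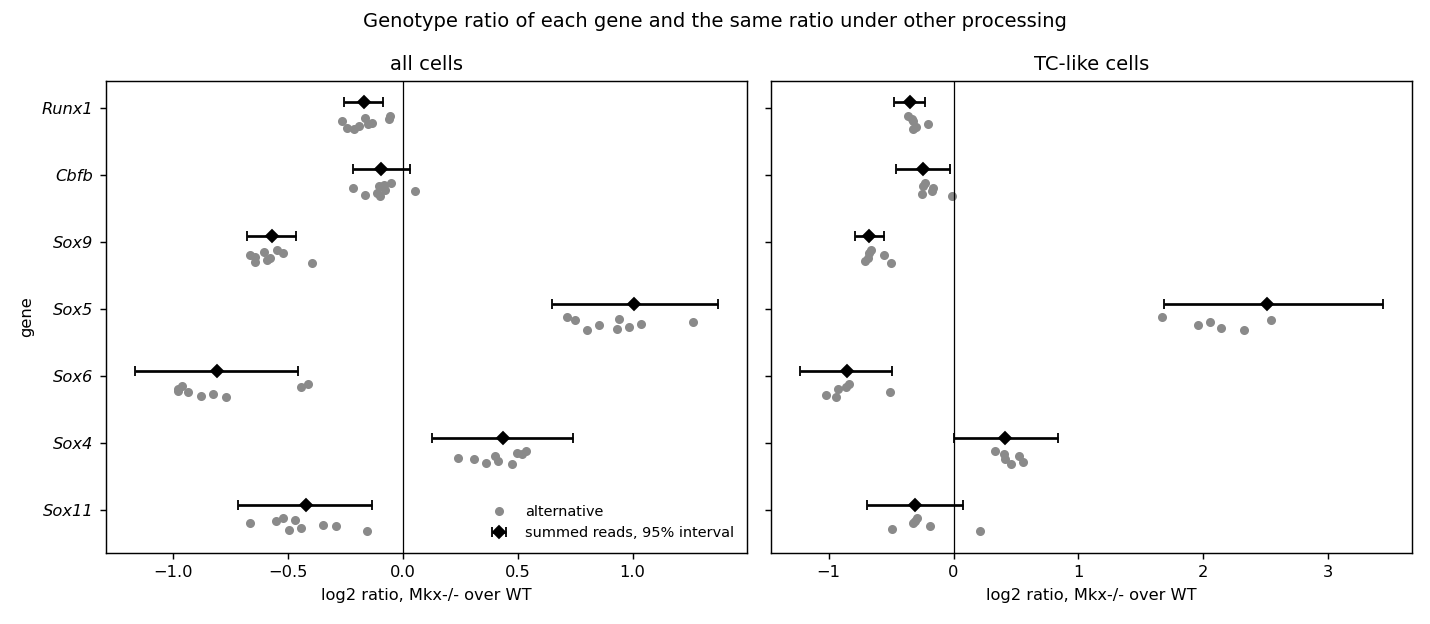
Log2 ratio of Mkx-/- to WT (horizontal axis) for the 7 genes with at least 100 reads, over all cells and in TC-like cells, where diamonds with bars are summed reads with exact 95% intervals and grey points are the same ratio under other processing. Sox5 stayed above 0 and Sox9, Sox6 and Runx1 below 0 in both panels, while Cbfb over all cells and Sox11 in TC-like cells had points on both sides.

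Several members were often read in the same cell of the tenocyte-like state. At least 4 of the 8 genes had reads in 28.4% of WT and 26.3% of Mkx-/- TC-like cells, against 4.49% and 1.14% of TPC-like cells, where the libraries were shallower (median 82854 against 48157 reads in WT). No member was read in 32 WT and 18 Mkx-/- cells. Runx1 and Sox9 were both read in 58.1% of WT and 52.5% of Mkx-/- TC-like cells.

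Over single cells, the genes whose log2(CPM + 1) followed Sox9 most closely among 4711 genes were Col1a2 (Pearson r of 0.38 over 227 WT and 0.38 over 224 Mkx-/- cells), 1500015O10Rik (0.38 and 0.38) and Col1a1 (0.37 and 0.38). Both collagen genes encode chains of type I collagen, the main fibre of tendon. The nearest to Runx1 were Homer2 (0.23 and 0.26), Comp (0.25 and 0.23) and Mgp (0.24 and 0.21), all weaker. For Cbfb (Aebp2, Sdcbp and Ndufa4) the highest value in either genotype was 0.20, for Ndufa4 in WT, and for Sox4 (Ftsj3, Cebpd and Vcam1) it was 0.21, for Ftsj3 in Mkx-/- cells. Cells of a genotype share its libraries and differ in depth, and such weak values in sparse counts are no finding.

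Of the genes that Sox9 is known to drive in cartilage, most of those with at least 100 reads were higher in Mkx-/- cells. Of the 19 listed symbols found, 11 had at least 100 reads, of which 8 were higher in Mkx-/- cells and 3 lower, with 6 higher and 2 lower past 1.5-fold (16% and 13.1% of all genes). Their median log2 ratio was 1.19 against 0.05 for all genes, and 0.37 when all listed genes with a read were taken with a pseudocount of 1 CPM. In TC-like cells 7 of the 11 were higher, with a median of 1.11 against 0.20 for all genes. Ucma, a protein of immature cartilage, went from 3.96 CPM in WT to 48.99 CPM in Mkx-/- cells (log2 ratio 3.63, interval 3.23 to 4.06), and 1 WT cell held 55.6% of its WT reads. Ucma reached the minimum mainly through Mkx-/- cells, and Cytl1, described below, through WT cells. Their places in the counts above therefore lean on the group where each was high. Epyc, a small cartilage proteoglycan, went from 13.6 to 100.2 CPM (2.88), Chad, which binds collagen and chondrocytes, from 159.1 to 406.7 CPM (1.35), and Acan, the aggrecan core protein, from 8.58 to 19.6 CPM (1.19). The collagens were on the other side or near 0. Col11a2 went from 363.9 to 154.5 CPM (-1.24) and Col2a1, the main cartilage collagen, from 158.2 to 115.4 CPM (-0.46), while Col11a1 was at 398.9 and 427.98 CPM (0.10).

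Cytl1, a secreted protein of cartilage, stood apart from the list. Its 938 WT reads and 5 Mkx-/- reads gave 68.8 and 0.353 CPM and a log2 ratio of -7.61 (interval -9.23 to -6.38). The WT reads were spread over 11.5% of cells, with 23.7% of them in a single cell, and the Mkx-/- reads over 2.23%. The WT level was highest in cluster 3, at 277.7 CPM against 25.8 CPM in TC-like and 7.16 CPM in TPC-like cells, and was under 1 CPM in each Mkx-/- cluster.

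**Figure D5:**
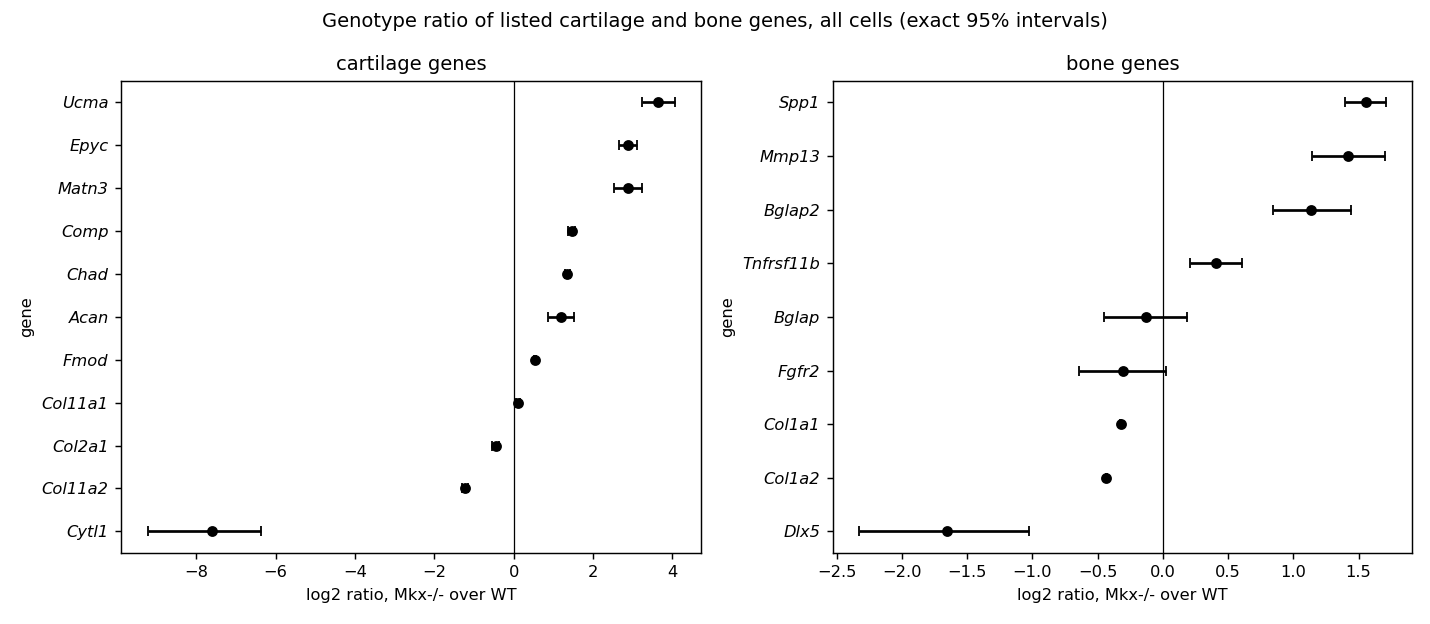
Log2 ratio of Mkx-/- to WT (horizontal axis, different range in each panel) over all cells for the listed cartilage and bone genes with at least 100 reads, with exact 95% intervals that cover counting error only and are narrower than the marker for the most abundant genes. Cartilage genes ranged from -7.61 (Cytl1) to 3.63 (Ucma) and bone genes from -1.66 (Dlx5) to 1.55 (Spp1).

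Bone genes listed around Runx2 were split. Of 18 listed, 9 had at least 100 reads, 4 higher and 5 lower, with 3 higher and 1 lower past 1.5-fold (16% and 13.1% of all genes). Their median log2 ratio was -0.13, and 0.15 with equal weight per cell. Spp1, the bone matrix protein osteopontin, was read in 11.5% of WT and 36.2% of Mkx-/- cells (32.8 and 96.3 CPM, log2 ratio 1.55). Mmp13, a collagenase, had a ratio of 1.42, with 62.1% of its WT and 51.4% of its Mkx-/- reads in a single cell each. Sp7, the osteoblast factor next in line after Runx2, and the bone matrix gene Ibsp, both chosen for mention after their values were seen, had 0 reads in all cells, which by the rule of 3 counts allows a share of cells of up to 1.32% in WT and 1.34% in Mkx-/-. Dlx5, a homeobox factor of osteoblasts, was at 6.24 and 1.98 CPM (-1.66). Col1a1 and Col1a2 were lower, with ratios of -0.32 and -0.43.

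Proteins that work with Runx factors showed no common direction either, with 8 of 17 higher and 9 lower. Of these proteins, 2 were higher and 1 lower past 1.5-fold (16% and 13.1% of all genes). Their median was -0.03, and 0.06 with equal weight per cell. Cebpb, a partner of Runx2 at the osteocalcin gene, was at 76.9 CPM in WT against 36.8 CPM in Mkx-/- cells (log2 ratio -1.06, interval -1.22 to -0.91) and lower in all 3 clusters (-0.60, -0.99 and -1.44 in TPC-like cells, cluster 3 and TC-like cells). Cbfa2t2, a corepressor of the ETO family, was at 6.82 and 21.6 CPM (1.66, interval 1.33 to 2.02) and higher in all 3 (1.47, 1.55 and 1.85). Wwtr1, which encodes TAZ, had a ratio of 0.37 and Tle3, a Groucho corepressor, -0.34.

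Among 19 signals known to act upstream of these factors, 9 were higher and 10 lower, with a median of -0.04. Past 1.5-fold, 2 of these signals were higher and 2 lower (16% and 13.1% of all genes). Pth1r, the receptor that holds growth plate cells back from maturing, was at 5.58 CPM in WT against 23.6 CPM in Mkx-/- cells (log2 ratio 2.08), and its ligand gene Pthlh had a ratio of 1.14. Fgfr3 (-1.21) and Gli3 (-1.06) were lower over all cells, while their TC-like ratios were 1.05, on 0.630 and 1.30 CPM, and 0.18. Of 10 tendon factors, Eya2 had a ratio of 1.27, while Scx, the early tendon factor, was at -0.29 over all cells. The Scx ratio was 2.28 in TPC-like cells and 2.44 in cluster 3, both under the minimum of 100 reads and descriptions only. WT levels of Scx were 1.30 and 1.87 CPM there against 96.4 CPM in TC-like cells. Of 16 other Runx and Sox genes, only Sox13, with a ratio of -0.58 and an interval of -1.19 to 0.02, had at least 100 reads.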

How the data were processed

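The deposited table holds raw read counts per gene and cell. Per the study's methods the authors trimmed reads, mapped them with Bowtie2 and counted them with featureCounts. The methods name mm9 as the genome and the submitters' processing notes name mm10, so gene positions are printed from the NCBIM37 annotation and promoters from GRCm38.p6, without conversion. All 451 cells were used and 0 columns were left unmapped. No 2 cells had identical counts. Counts were summed per genotype and cluster and divided by summed reads, since the labels name no animal, and no test was run. Cells were clustered in R 4.3.3 with Seurat 5.3.0 (1000 variable genes per genotype, 1693 in their union, canonical correlation alignment, 4 dimensions, resolution 0.4), doublets were not called, and cluster names follow marker lists. Counts of genes past 1.5-fold took genes with at least 100 reads over the groups compared, ratios on fewer reads are descriptions, and 3 reads served as the floor for a group at 0. Intervals were computed with scipy 1.17.1 and tested on simulated counts. Likeness was computed over genes read in at least 20% of cells of both genotypes. Named beside the members are, of each list, the 3 genes with most reads and the 2 highest and 2 lowest ratios, given here in part. The 8 genes and the lists were chosen with earlier results of these data known. Sequence copies were sought with blastn 2.17.0+. Alternatives covered cell weighting, scaling (TMM in edgeR 4.0.16), depth, cell filters and clustering.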

Additional observations from a re-analysis of the deposited data

Results flagged for a closer look

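Runx1, Cbfb and Sox11 had ratios of Mkx-/- to WT that pointed in opposite directions in different clusters, each with an interval that left out 0. Runx1 had a log2 ratio of 0.25 in TPC-like cells against -0.35 in TC-like cells and -0.19 in cluster 3. Cbfb had 0.64 in cluster 3 but -0.33 in the TPC-like and -0.24 in the TC-like group. Sox11 had -1.82 in TPC-like cells against 0.86 in cluster 3, where its 25 WT and 45 Mkx-/- reads were under the minimum of 100 and single cells held most of the reads of both genotypes. With 1 sample per genotype, these differences between clusters were not tested.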

How the results depend on the processing

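The log2 ratios of Sox9, Sox5, Sox6, Sox4, Sox11 and Runx1 over all cells kept their direction under every alternative run, while that of Cbfb, whose interval held 0, was 0.054 with equal weight for each cluster. The ratio of Runx1 turned to -0.071 in TPC-like cells under k-means without alignment, and its ratio of TC-like to TPC-like cells in Mkx-/- turned to -0.13. That grouping left 6 cells in its smallest cluster, so no cluster 3 value was made there. These Runx1 values were the 2 changes of sign among ratios whose interval left out 0, and 16 more were of ratios whose interval held 0. Beside the former 2, 52 values left their counting interval, some of the latter 16 among them. With equal weight per cell, the number of members lower by 1.5-fold in TC-like cells of both genotypes went from 1 to 0. With a minimum of 20 reads, the genes past 1.5-fold numbered 3289 higher and 3381 lower, against 1757 and 1439 at 100 reads. Thinning to 28000 reads left 9 of 19 WT cells with Sox9 and Sox6 and 41 of 67 with Runx1 and Cbfb. TMM scaling moved every log2 ratio by -0.02. A clustering with 10 dimensions moved 45 cells between TPC-like and cluster 3, and one that left out 1548 genes (the members, the lists and genes that differed between genotypes) moved 36. The omission of wells with other cell markers was chosen after seeing the data. Depth limits Runx2, Sox5, Sox6 and Sox11 most, since they were read in under 15% of cells. No paired analysis was possible because the genotypes share no replicate numbers.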
